A study of Saccharomyces cerevisiae with 24 samples.

Results

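Yeast deletion strains with the empty vector were compared here on galactose against glucose to ask which gene deletions lower or raise the abundance of a strain on galactose when no MDM33 is expressed from the plasmid. The comparison used 12 of the 24 array samples, chosen by plasmid: 6 from glucose plates and 6 from galactose plates. The samples came from 2 independent experiments on each sugar. The pool was the MATα haploid deletion collection in strain BY4742, in which each strain lacks 1 non-essential gene and carries 2 short DNA barcodes, an uptag and a downtag, at the deleted locus. All strains in both groups carried pYX223, the multicopy vector with no insert behind its galactose-inducible GAL1/10 promoter, whereas the strains of the other 12 samples carried MDM33 on it. Transformants were first collected from glucose plates and then spread on plates with 2% glucose for 2 days or 2% galactose for 4 days, so that sugar and time on the plate cannot be told apart. All plates were supplied with leucine, lysine and uracil as the only amino acids and bases. The array had a probe for 5526 strains, of which 4115 passed the filter on low values and were tested. Of the 5526 strains, 5086 matched a gene of the RefSeq table, and the other 440 are given by their systematic number.

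Yeast takes up galactose through the permease Gal2 and converts it to glucose-6-phosphate by the Leloir pathway, in which Gal1 phosphorylates galactose, Gal7 and Gal10 exchange it for glucose on a UDP carrier, and a phosphoglucomutase ends the route. The GAL genes are switched on by the activator Gal4, which Gal80 holds inactive until Gal3, the galactose sensor, binds Gal80. On glucose, these genes and many genes of respiration are repressed, and the Snf1 kinase is needed to lift this repression when glucose is absent. Mitochondrial respiration needs the respiratory complexes, coenzyme Q, the ATP synthase and the mitochondrial ribosomes, which translate the subunits that mitochondrial DNA encodes.

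A strain's value was the mean scaled intensity of its barcodes, averaged over dyes and then over both tags, and each value below is such a mean in 1 experiment. A difference is galactose minus glucose on the scale log2(value + 500). A tag was called detected when it exceeded the 99th percentile of the probes of the unlabelled tag in the same sample, a limit between 185 and 732 intensity units, and a strain was called detected when at least 1 of its tags was. On glucose, 3718 strains were detected in experiment 1 and 4203 in experiment 2, and on galactose 3691 and 4039. The experiments differed in their spread. In experiment 1 the lower and upper quartiles of the differences were -1.1 and 0.7, and in experiment 2 -0.21 and 0.21. The differences of the 4115 strains had a Spearman correlation of 0.12 (Pearson 0.14) between experiments, which share the pool and the array design. Within experiment 1 the uptag and the downtag of 2399 strains correlated at 0.74 (Pearson 0.77), and within experiment 2 at 0.42 (Pearson 0.75). The 2 dye orientations of experiment 2 correlated at 0.21 (Pearson 0.68) over the 4115 strains. In experiment 1 each sample was labelled with 1 dye, Cy5 for glucose and Cy3 for galactose, so that dye and sugar cannot be told apart there, whereas experiment 2 had both dyes on both sugars. By both tags, 29 strains were missing on glucose in experiment 1 alone while each tag stood at over 10 times its limit in the other 3 empty-vector samples. The corresponding numbers were 9 for galactose in experiment 1, 1 for glucose in experiment 2 and 0 for galactose in experiment 2.

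No strain passed the test. With limma on 4 values per strain and Benjamini-Hochberg adjustment at 0.05, 0 of 4115 strains were lower (0%) and 0 were higher (0%) on galactose, and the smallest adjusted p was 0.439. At an unadjusted p under 0.05, limma gave 81 lower strains (1.97%) and 19 higher ones, a split that turned to 25 lower and 81 higher when each sample was scaled again to the 75th percentile of all its probes. In that second fit limma gave all strains 1 common variance, which it did not in the main fit, so that the counts of the 2 fits differ by more than the scaling. The median difference of all 4115 strains was -0.08. What follows therefore describes values, and a difference of a single strain is not called a change. Both galactose values lay below both glucose values for 689 strains (16.7%) and above them for 583 (14.2%). A difference of at least 2-fold in the same direction in both experiments was seen for 107 strains that were lower (2.6%) and for 28 that were higher (0.68%). The strictest description used here asked for at least 2-fold by each tag in each experiment. It held for 53 strains that were lower, of the 2399 with both tags above the limit in both glucose samples (2.21%), and for 11 that were higher, of the 2326 with both tags above the limit in both galactose samples (0.473%). With the further scaling just named, these numbers were 34 and 22. These 53 and 11 strains were chosen by the values that describe them, and no test was run on them. The weakest of the 4 readings was -1.01 for Δdma2, just inside this limit, and -0.96 for Δndi1, just outside it.

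Strains that lack a gene of galactose use were less abundant on galactose, in most cases in both experiments. All 6 genes of the list of Leloir enzymes, phosphoglucomutases and permease were on the array and tested. Of these, 4 were at least 2-fold lower in both experiments, where the share of all strains was 2.6%. Their median difference was -2.61, with -3.21 in experiment 1 and -1.74 in experiment 2, beside -0.08 for all strains. The Δgal1 strain (YBR020W), without galactokinase, gave 23336 and 24919 on glucose in experiments 1 and 2 and 1689 and 1646 on galactose. Its galactose values were close to each other and well below both glucose values, at 7.24% and 6.6% of them. Its bright downtag read -3.69 and -3.78 in experiments 1 and 2, and its dim uptag -0.88 and -1.63. The mean difference was -3.51 (SE 0.50, n = 2 experiments per sugar, limma adjusted p = 0.439). The Δpgm2 strain, without the major phosphoglucomutase, gave 132567 and 51149 on glucose and 2232 and 8708 on galactose. It was lower by both tags in both experiments, with a difference of -5.61 in experiment 1 and -2.49 in experiment 2.

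The permease strain Δgal2 gave 103285 and 45627 on glucose and 5485 and 14540 on galactose, so that its groups did not overlap either. The Δgal7 strain, without the uridylyltransferase, gave 4798 and 18682 on glucose and 171 and 5225 on galactose. Here the galactose value of experiment 2 exceeded the glucose value of experiment 1, and the groups overlapped. For Δgal2 and Δgal7 only the uptag was above the limit in both glucose samples, and the values thus rest on 1 tag. The Δpgm1 strain, which keeps the major phosphoglucomutase Pgm2, gave 22713 and 18911 on glucose and 5152 and 22796 on galactose. It was lower in experiment 1 (-2.04) and not in experiment 2 (0.26). The Δgal10 strain was scarce already on glucose, with 75.1 and 1350, and gave 135 and 58.5 on galactose. It was detected on glucose in experiment 2 only, and its difference there was -1.73.

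Of the GAL switch, the strain without the activator was the lowest. Δgal4 gave 62639 and 55671 on glucose and 4421 and 2832 on galactose, 7.06% and 5.09% of the glucose values. All 4 readings by tag and experiment were similar, from -4.53 (uptag, experiment 1) to -3.30 (downtag, experiment 1), and the mean difference was -3.88 (SE 0.53, limma adjusted p = 0.439). The strain without the sensor, Δgal3, gave 36316 and 8119 on glucose and 942 and 3767 on galactose. Its groups did not overlap, but the tags disagreed in experiment 1, with 0.06 by the dim uptag and -5.59 by the bright downtag. In experiment 2 they gave -1.78 and -0.92. The strain of the next systematic number after GAL3, YDR010C, gave 3107 and 32818 on glucose and 69.6 and 186 on galactose, and its value rests on the uptag alone. That strain was picked after its values were seen. Removal of the repressor went the other way in experiment 1. Δgal80 gave 13899 on glucose and 217572 on galactose there, and 51713 and 44425 in experiment 2, a difference of 3.92 and then -0.22. Only an uptag was read for Δgal80.

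**Figure D1:**
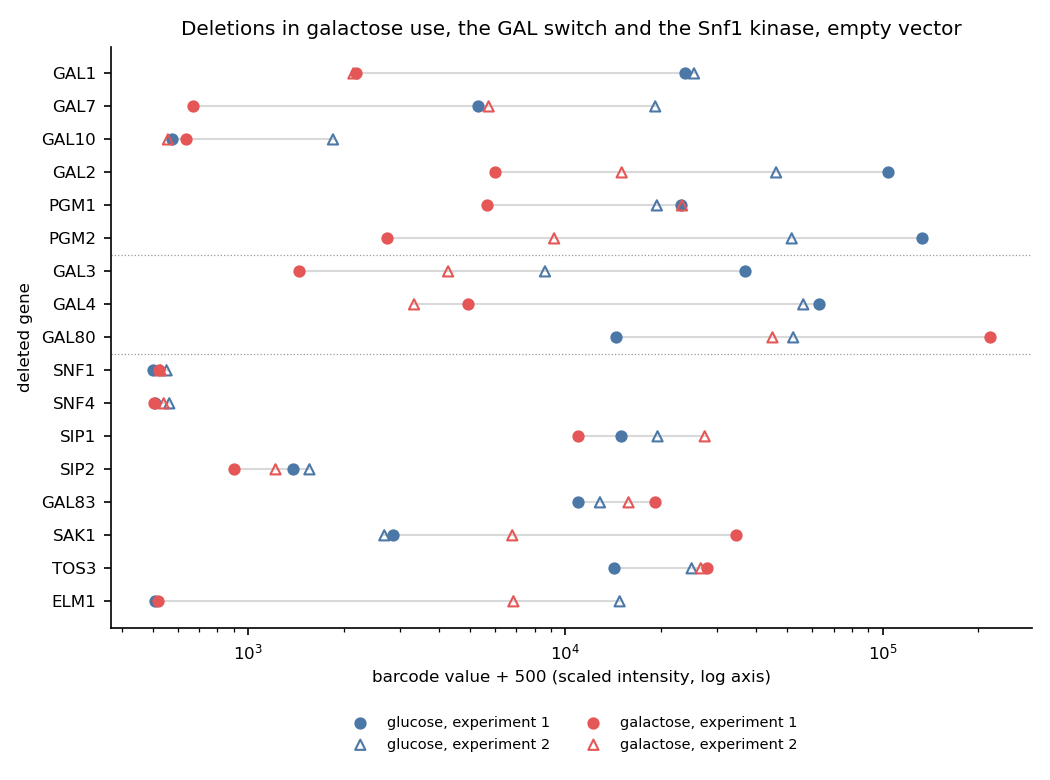
Barcode value + 500 on a log axis for each deletion strain of galactose use (top), the GAL switch (middle) and the Snf1 kinase (bottom), with empty vector. Each point is 1 experiment on 1 sugar, circles for experiment 1 and triangles for experiment 2. The Δgal1, Δgal2, Δpgm2, Δgal3 and Δgal4 strains have both galactose points below both glucose points, and Δsnf1 and Δsnf4 sit at the floor on both sugars.

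The Snf1 kinase list gave no such pattern. The strains without the catalytic subunit Snf1 and the activating subunit Snf4 were detected on neither sugar in either experiment, with no value above 63.8, and were not tested, so that their need on galactose was not measurable here. The other 6 members were tested, and 0 of them were 2-fold lower in both experiments. The β-subunit strain Δsip2 was low on both sugars, with 885 and 1059 on glucose and 403 and 719 on galactose. The strain without Gal83, an alternative β-subunit, gave 10458 and 12343 on glucose and 18714 and 15305 on galactose, a difference of 0.55 (SE 0.51). Δsip1, without the remaining β-subunit, was at -0.44 in experiment 1 and 0.49 in experiment 2. Of the upstream kinases that activate Snf1, Δtos3 was within 2-fold in both experiments (0.98 and 0.10), and Δelm1 was not detected on glucose in experiment 1 and reached -1.11 in experiment 2. The Δsak1 strain was more abundant on galactose, with 2362 and 2185 on glucose and 33923 and 6296 on galactose, and its groups did not overlap. Its difference was 2.46 (SE 0.93, limma adjusted p = 0.934).

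Among the lists, those of mitochondrial respiration held the most of the low strains. The 5 lists of respiratory complexes III and IV, ATP synthase, both mitochondrial ribosomal subunits and coenzyme Q synthesis together held 83 tested strains out of 158 on the array. In experiment 2, 57 of the 83 were at least 2-fold lower on galactose (68.7%), where the share of all 4115 strains was 6.32% (260 strains), and 0 of the 83 were 2-fold higher, where 3.11% of all strains were. In experiment 1, 32 of the 83 were 2-fold lower, where 26.9% of all strains (1105) were, and 9 of the 83 were 2-fold higher, where 19.8% of all strains (814) were. In both experiments 24 of the 83 were 2-fold lower (28.9%, beside 2.6% of all strains), and 0 were 2-fold higher. In limma 21 of the 83 were lower at an unadjusted p under 0.05, beside 1.97% of all strains, and 0 at an adjusted p under 0.05. The median difference of the 83 was -0.13 in experiment 1 and -2.53 in experiment 2. The strains' glucose values differed between the experiments. In experiment 1, 32 of the 83 were not detected on glucose, so that a lower value on galactose could not be seen, and 31 of these 32 were at least 2-fold lower on galactose in experiment 2, with a median of -3.39. These 31 are part of the 57 above. A strain undetected on glucose in experiment 1 and scarce on galactose could pass the filter only through its glucose value of experiment 2. For such strains the filter itself favoured a lower galactose value in experiment 2. Over all tested strains, 429 were not detected on glucose in experiment 1, and 117 of them were 2-fold lower in experiment 2.

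**Figure D2:**
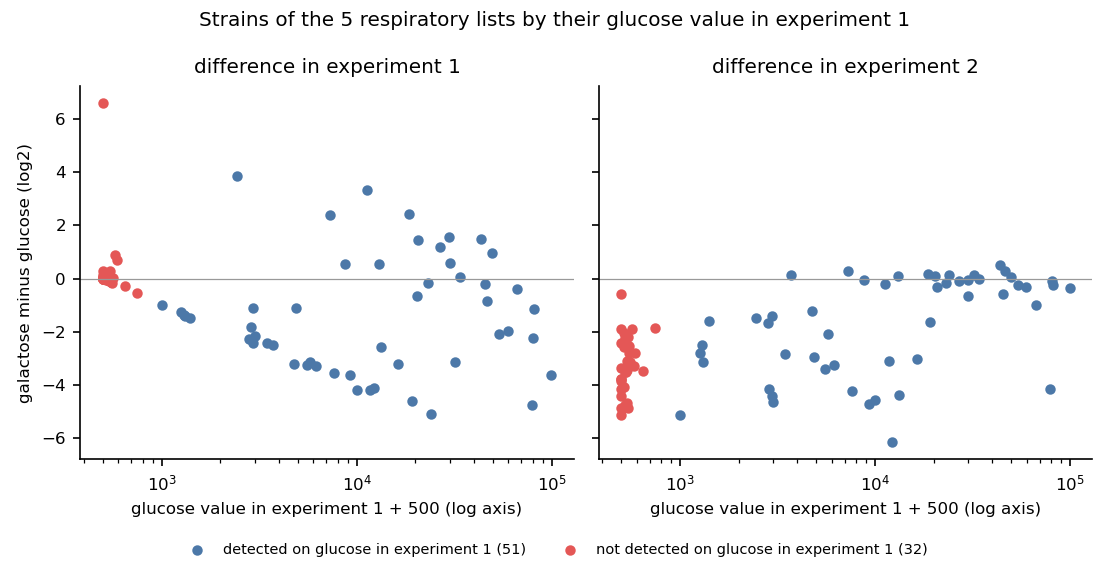
Galactose minus glucose (log2) in experiment 1 (left) and experiment 2 (right) for the 83 tested strains of the 5 respiratory lists, against their glucose value in experiment 1 + 500 on a log axis. The 32 strains not detected on glucose in experiment 1 (red) lie mostly near 0 on the left, and 31 of them lie at or below -1 on the right.

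Within respiratory complexes III and IV, 32 of 50 strains on the array were tested, 22 were 2-fold lower in experiment 2 and 10 in both experiments. Their median difference was -1.69, with -0.17 in experiment 1 and -2.46 in experiment 2. Of the 16 with both tags above the limit on glucose, 7 were lower by both tags in both experiments. Δcyt1, without cytochrome c1, gave 9507 and 15481 on glucose and was not detected on galactose, at 47 and 189. Δcor1, without a core subunit of complex III, was not detected on galactose either, with 8794 and 15723 on glucose and 256 and 118 on galactose. The strain without the cytochrome c oxidase subunit Cox12 was abundant on glucose, at 78564 and 42563, and gave 2489 and 1948 on galactose, a difference of -4.43 (SE 0.58, limma adjusted p = 0.439). The other 4 of the 7 lack Pet54, which activates translation of a cytochrome c oxidase subunit, the complex III assembly factors Cbp3 and Cbp4, or the cytochrome c oxidase assembly factor Cox16, and their mean differences ran from -3.64 (Δpet54) to -2.62 (Δcox16). A further set was seen on glucose in experiment 2 only. Δcox10, without the enzyme of heme A synthesis, gave 11355 on glucose and 64.6 on galactose in that experiment and no more than 14.2 in experiment 1.

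Some members of this list stayed near 0 in experiment 2. Δcyc1 and Δcyc7, which each lack an isoform of cytochrome c, were at 0.07 and 0.09 in experiment 2, and Δcox5a and Δcox5b, which each lack an isoform of a cytochrome c oxidase subunit, at -0.35 and -0.09. In experiment 1, Δcox5a was at -3.62 and Δcox5b at -2.24. The small subunits Qcr6, Qcr10, Cox8 and Cox13 belonged here as well, between -0.31 (Δcox13) and 0.50 (Δqcr10) in experiment 2.

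The ATP synthase list was split. Of 28 strains on the array 16 were tested, with a median difference of -0.97 (-0.09 in experiment 1 and -1.45 in experiment 2). In experiment 2, 9 were 2-fold lower, 3 of them in both experiments. Among the 11 detected on glucose in both experiments the median was -0.29. In experiment 2, Δatp7, without a stalk subunit, gave 16400 on glucose and 85.5 on galactose, and Δaep2, without a factor for expression of the mitochondrially encoded Atp9, gave 14773 and 29.7. Both were undetected on glucose in experiment 1. The assembly factor strain Δatp10 was low in both experiments, with 15860 and 9936 on glucose and 1284 and 796 on galactose, although only its uptag read lower (-3.41 and -3.31, against 0.11 and -0.09 by the downtag). Strains without the regulators Inh1, Stf1 and Stf2 lay between -0.23 (Δinh1) and 0.30 (Δstf1) in experiment 2. Δtim11, without a subunit of the ATP synthase dimer, went opposite ways, at 3.86 in experiment 1 and -1.49 in experiment 2.

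Strains without a mitochondrial ribosomal protein were also low, by the median in experiment 2 only. In the small subunit, 15 of 30 strains were tested, 11 were 2-fold lower in experiment 2 and 4 in both experiments, and the median was -1.88. By experiment the median was -0.05 (experiment 1) and -3.28 (experiment 2), and 7 of the 15 were not detected on glucose in experiment 1. Δmrp1 (YDR347W) had the largest mean difference among the 53 strains lower by both tags. It gave 11735 and 44054 on glucose and 217 and 131 on galactose, 1.85% and 0.298% of the glucose values and below the detection limit in both experiments. Its difference was -5.12 (SE 0.80, limma adjusted p = 0.442). Δrsm7, Δrsm18 and Δmrps8 were likewise detected on glucose and not on galactose in both experiments, with differences of -3.31, -3.41 and -3.40. In the large subunit, 15 of 40 strains were tested, 10 were 2-fold lower in experiment 2 and 4 in both, and the median was -1.75. Here the median was 0 in experiment 1 and -2.56 in experiment 2, and 6 of the 15 were not detected on glucose in experiment 1. Δmrpl8 gave 500 and 19328 on glucose and 3.62 and 68.2 on galactose. None of the 5 large-subunit strains with both tags above the limit on glucose was lower by both tags in both experiments. Δmrpl13 was not detected on glucose in experiment 1 and gave 47555 on galactose there, a difference of 6.59, against -0.59 in experiment 2.

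All 5 tested strains of coenzyme Q synthesis, of 10 on the array, were at least 2-fold lower on galactose in experiment 2, 3 of them in both experiments, with a median of -3.46 there and -1.10 in experiment 1. Δcoq9 gave 7143 and 11510 on glucose and 160 and 146 on galactose. Δcoq1, without the first enzyme of the isoprenoid tail, gave 5673 and 8853 on glucose and 129 and 476 on galactose. In experiment 2, by contrast, strains without an enzyme of the tricarboxylic acid cycle had a median of -0.02, and 0 of the 15 tested were 2-fold lower. In experiment 1 their median was -0.69, and 7 of the 15 were 2-fold lower. The 5 respiratory lists together had a median of -0.13 there, with 32 of 83 strains 2-fold lower.

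**Figure D3:**
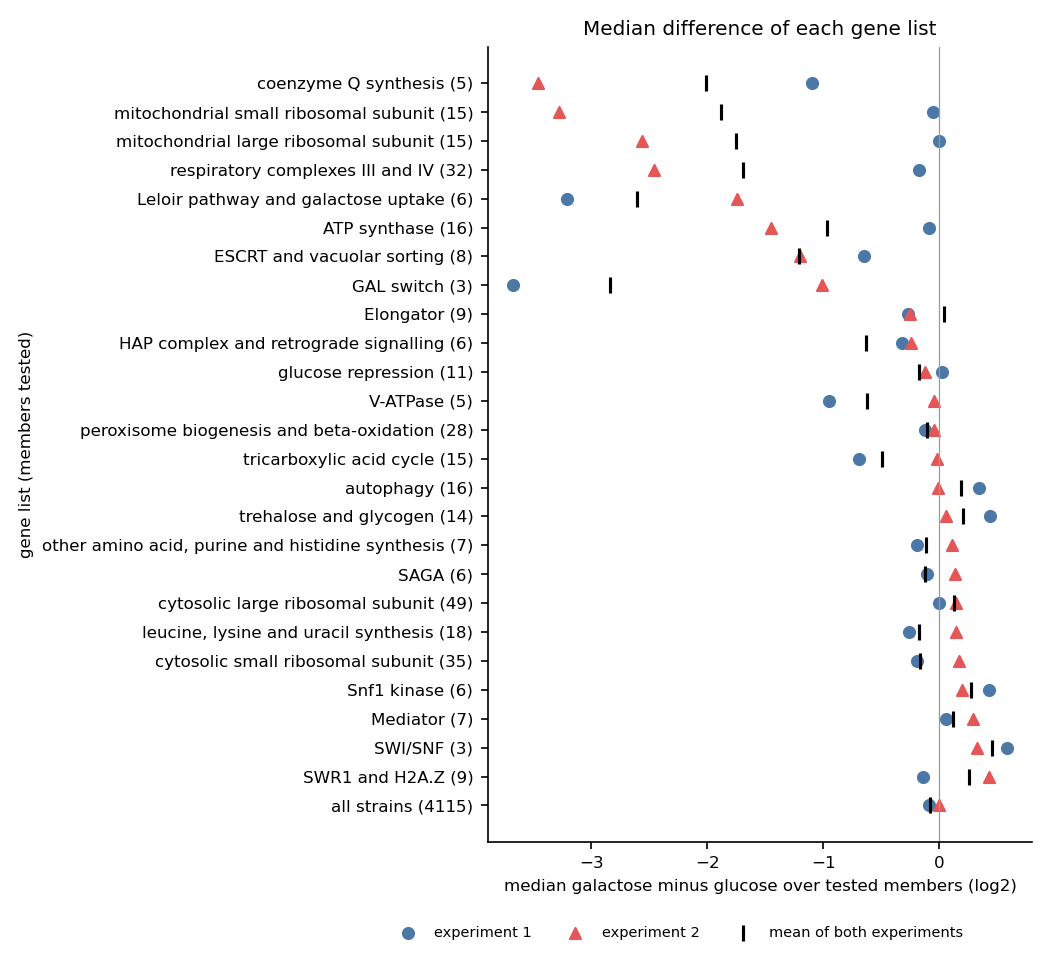
Median galactose minus glucose (log2) over the tested members of gene lists in experiment 1 (circles), experiment 2 (triangles) and the mean of both (bars), with the number of members tested in brackets. The lists added after the values were seen and late ergosterol synthesis are not shown. The coenzyme Q list, both mitochondrial ribosomal subunits and respiratory complexes III and IV lie below -2 in experiment 2. The galactose use and GAL switch lists are below -1 in both experiments. All strains together are at -0.09 and 0.

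Further strains of mitochondrial gene expression stood among the low ones. The groups in this paragraph were put together after the values were seen. Of 8 tested strains without a mitochondrial aminoacyl-tRNA synthetase or a relative of one, 8 were 2-fold lower in experiment 2 and 3 in both experiments. The shares of all strains were 6.32% and 2.6%. Of the 8, 4 were not detected on glucose in experiment 1, and all 4 were 2-fold lower in experiment 2. For such strains the filter favoured a lower galactose value in experiment 2, as in the respiratory lists. Δslm5, without the asparaginyl-tRNA synthetase, gave 9748 and 28263 on glucose and 273 and 169 on galactose, and was the strain with the third largest mean difference of the 53, -4.58 (SE 0.70). Δmsm1, without the methionyl-tRNA synthetase, and Δaim10, without a protein similar to prolyl-tRNA synthetases, were at -2.96 and -3.47. Strains without factors that keep or transcribe mitochondrial DNA were low too. Δmip1, without the mitochondrial DNA polymerase, and Δhmi1, without a mitochondrial DNA helicase, were at -3.36 and -3.68 in the mean of both experiments. Each of these values rests on 1 tag, the downtag of Δmip1 (its uptag read 0.07 and -0.05) and the uptag of Δhmi1 (its downtag read -0.03 and -0.17). Δmtf1, without the specificity factor of the mitochondrial RNA polymerase, was detected on glucose in experiment 2 only and was at -4.45 there. Δnuc1, without a mitochondrial nuclease, was at 0.74 and 0.27. The median of the 4 tested strains of this group was -2.85 (-1.62 in experiment 1 and -3.67 in experiment 2). That of the synthetase group was -1.93 (-0.51 and -3.41).

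**Figure D4:**
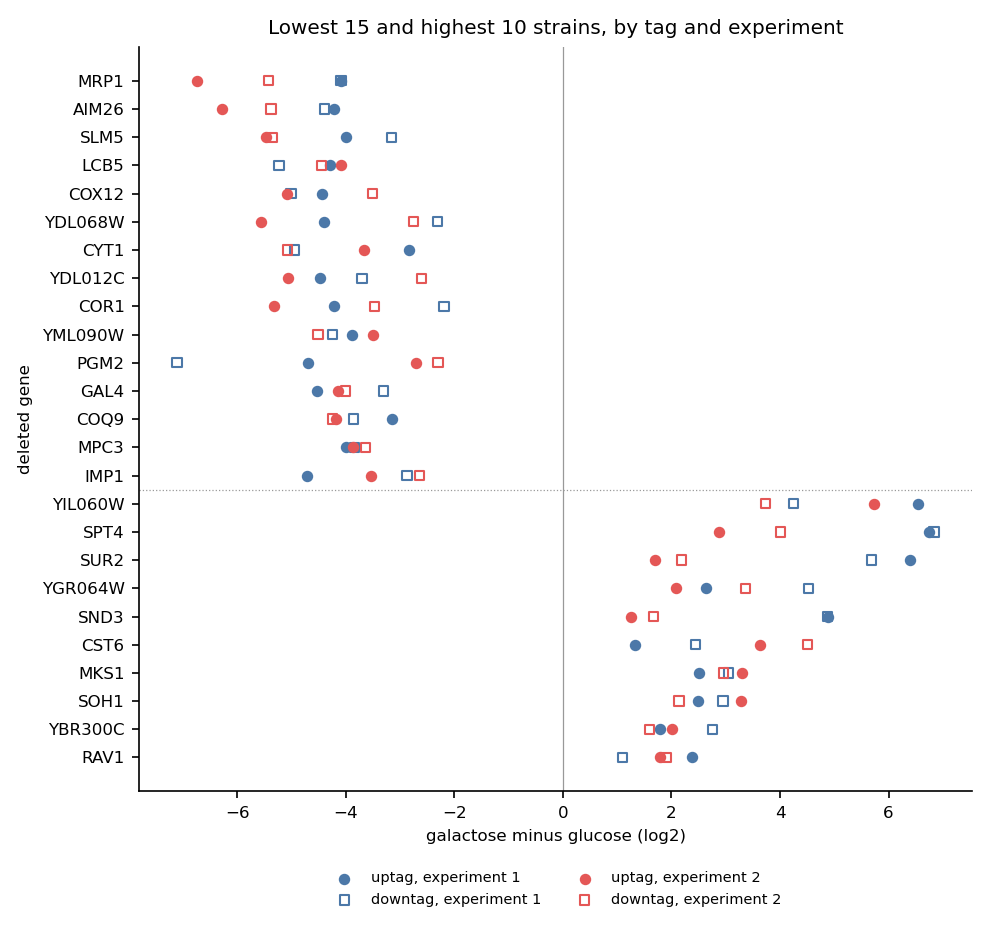
Galactose minus glucose (log2) by tag and experiment for the 15 strains with the lowest and the 10 with the highest mean difference among those at least 2-fold different by both tags in both experiments, with empty vector. Circles are uptags and squares downtags, blue for experiment 1 and red for experiment 2. All 4 readings of each strain lie on 1 side of 0 by the choice of strains.

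Among the 15 lowest strains by both tags, 5 belong to the respiratory lists (Δmrp1, Δcox12, Δcyt1, Δcor1 and Δcoq9), 2 to galactose use and its switch (Δpgm2 and Δgal4), and Δslm5 was described above. The other 7 follow. Δaim26 (YKL037W), whose gene was named for altered inheritance of mitochondria, gave 13163 and 37143 on glucose and was not detected on galactose (201 and 168), a difference of -5.05 (SE 0.70, limma adjusted p = 0.439). Δlcb5 (YLR260W), without the minor kinase of sphingoid long-chain bases, gave 22484 and 11218 on glucose and 378 and 98.7 on galactose. Δmpc3 (YGR243W), without a subunit of the mitochondrial pyruvate carrier, gave 11390 and 7395 on glucose and 272 and 79.2 on galactose. Its groups were far apart, and the 4 readings by tag and experiment lay between -3.99 (uptag, experiment 1) and -3.64 (downtag, experiment 2). The other carrier strains did not read alike, with Δmpc2 at -1.72 in experiment 1 and -0.07 in experiment 2, and Δmpc1 at 2.86 and -1.21. Δimp1 (YMR150C), without a peptidase subunit of the mitochondrial inner membrane, gave 22023 and 10687 on glucose and 612 and 632 on galactose. The partner subunit strain Δimp2, read by its uptag alone, was at -0.71 and -5.21.

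The remaining 3 of the 15, YDL068W, YDL012C and YML090W, are named only by number, and YDL068W and YML090W are absent from the RefSeq table. The YDL068W strain gave 12994 and 15920 on glucose and 367 and 72.4 on galactose. The YML090W strain gave 23476 and 31284 on glucose and 855 and 1284 on galactose. Some of these numbers adjoin genes of mitochondrial gene expression. YDL068W comes next to CBS1, a translational activator of cytochrome b, and YML090W next to RPM2, the protein subunit of mitochondrial RNase P. On its other side YDL068W adjoins COX9, which encodes a cytochrome c oxidase subunit, and Δcox9 was undetected on glucose in experiment 1 and gave 3979 on glucose and 278 on galactose in experiment 2. The Δcbs1 and Δrpm2 strains had no value above 114 on either sugar and were not tested. The strain of YMR151W, next to IMP1, was low along with Δimp1, with 27888 and 15692 on glucose and 400 and 2525 on galactose. Over all pairs of 1 of the 53 strains and a tested strain of the same or the next number, 3 of 88 neighbours (3.41%) were 2-fold lower in both experiments, beside 2.6% of all strains. They were the pair of IMP1 and YMR151W, counted from both sides, and Δsod2 beside Δtda3. For the 11 high strains it was 2 of 12 (16.7%), beside 0.68% of all strains, and both were the pair of SPT4 and YGR064W.

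Of the 53 strains lower by both tags, 13 were in the 5 respiratory lists, 2 in the galactose lists and 28 in none of the 33 lists used. In the respiratory lists 35 strains had both tags above the limit on glucose and could have met the rule. In the galactose use and GAL switch lists it was 2 strains each, of which 1 each met it. Over all strains that could meet the rule the share was 2.21%. In the mean of both experiments the 53 ran from -5.12 to -1.35 with a median of -3.31, and 16 of them were not detected on galactose in either experiment. In experiment 2, 47 of the 53 were 2-fold lower in both dye orientations. The 53 were chosen by means over these same dye orientations, so that the choice itself favoured this count. Strains of vacuolar traffic and of ubiquitin removal were part of the 53. Δubp3 and Δbre5, without the deubiquitinase Ubp3 and its cofactor Bre5, were both among them. Δbre5 gave 40796 and 41519 on glucose and 717 and 12620 on galactose, and Δubp3 10298 and 4252 on glucose and 3381 and 208 on galactose. The ESCRT-III strain Δvps24 gave 12900 and 9628 on glucose and 200 and 2723 on galactose. In the list of ESCRT and vacuolar sorting, 8 of 23 strains were tested, 2 were 2-fold lower in both experiments (Δvps24 and Δdid4), and the median was -1.21. Of the retromer, a list put together after the values were seen (5 tested, median -0.72), Δvps5 was lower by both tags, at -3.67 and -1.50. Its deletion overlaps VAM10 on the annotation, and the Δvam10 strain was undetected on both sugars in experiment 1 and at -0.96 in experiment 2. Δmrs2, without the magnesium channel of the mitochondrial inner membrane, was abundant on glucose (39768 and 41987) and gave 6044 and 9543 on galactose.

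Experiment 2, with both dyes, could be read by 4 readings of its own, each tag in each dye orientation. By all 4, 110 of the 2863 strains with both tags above the limit on glucose were at least 2-fold lower (3.84%), and 37 of these 110 were in the 5 respiratory lists, of which 66 strains could have met the rule (56.1%). By the same 4 readings 30 of the 2760 strains with both tags above the limit on galactose were 2-fold higher (1.09%), 19 of them undetected on glucose in experiment 1. Of the 110, 51 were not detected on glucose in experiment 1, and 42 were among the 53 above. Some of the 110 went the other way in experiment 1, such as Δvms1, at 3.12 there and -5.06 in experiment 2. Mitochondrial strains outside the respiratory lists were among the lowest of this set. Δmss116, without an RNA helicase of mitochondrial splicing, gave 15162 on glucose and 45.2 on galactose. Δppa2, without the mitochondrial pyrophosphatase, gave 15215 and 104, and Δdss1, without the mitochondrial exoribonuclease, 16237 and 222. These 3 strains were picked after their values were seen.

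Strains that were more abundant on galactose were fewer than those that were less abundant by both tags in both experiments (11 and 53, or 22 and 34 with the further scaling), while the split at an unadjusted p turned over with that scaling. All 11 that were 2-fold higher in every reading by tag and experiment follow. The highest was YIL060W, a strain that was not detected on glucose (0 and 57.3) and gave 27508 and 18035 on galactose, a difference of 5.43 (SE 0.54, limma adjusted p = 0.439). A strain undetected on glucose in both experiments could pass the filter only through its galactose values, which favoured a higher difference. This holds for YIL060W. YIL059C, which overlaps YIL060W on the annotation, gave 99122 and 80683 on glucose and 24617 and 82540 on galactose. Δspt4, without a transcription elongation factor, gave 11.1 and 2781 on glucose and 56419 and 31882 on galactose. YGR064W, the next number to SPT4 and absent from the RefSeq table, gave 1826 and 1314 on glucose and 44778 and 14283 on galactose, so that both strains of this pair were high in both experiments. Δspt4 was not detected on glucose in experiment 1. The 6 tested strains of a list around Spt4 and transcription elongation, put together after the values were seen, had a median of 3.51 in experiment 1 and 0.76 in experiment 2, where only Δspt4 was 2-fold higher. Δcdc73, without a subunit of the Paf1 complex, was at -4.25 in experiment 1 and undetected on glucose in experiment 2.

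The remaining high strains were of mixed function. Δsur2, without a hydroxylase of sphingolipid synthesis, gave 75.5 and 7897 on glucose and 39591 and 30185 on galactose. Δmks1, without a negative regulator of retrograde signalling, gave 1445 and 157 on glucose and 11319 and 5291 on galactose. Outside the 11, the strain without the retrograde activator Rtg3 was high as well, undetected on glucose (35.9 and 142) and at 887 and 7764 on galactose. Like YIL060W, it could pass the filter only through its galactose values. Δhap4, without the activator subunit of the HAP complex, was at -0.81 and -1.23. The 6 tested strains of the HAP and retrograde list had a median of -0.63 and ran from -2.53 to 3.69 in experiment 2. Of Mediator, Δsoh1 gave 27.7 and 732 on glucose and 3000 and 8293 on galactose, and Δmed1, which is outside the 11, 3202 and 1646 on glucose and 25975 and 10421 on galactose. Both were 2-fold higher in both experiments, Δmed1 by its uptag alone (downtag -0.19 and 0.23), while the median of the 7 tested Mediator strains was 0.12. Δrav1, without a subunit of the RAVE complex that assembles the V-ATPase, gave 29056 and 5684 on glucose and 102020 and 21485 on galactose, so that its groups overlapped although it was higher within each experiment (1.79 and 1.83). Δsnd3, without a factor of protein targeting to the endoplasmic reticulum, Δcst6, without a bZIP transcription factor, YBR300C and Δypk1, without a protein kinase of membrane homeostasis, completed the 11, with mean differences of 3.20, 3.07, 2.03 and 1.66. Glucose values under 100 in at least 1 experiment were found for Δspt4, Δsur2, Δcst6, Δsoh1 and YIL060W.

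**Figure D5:**
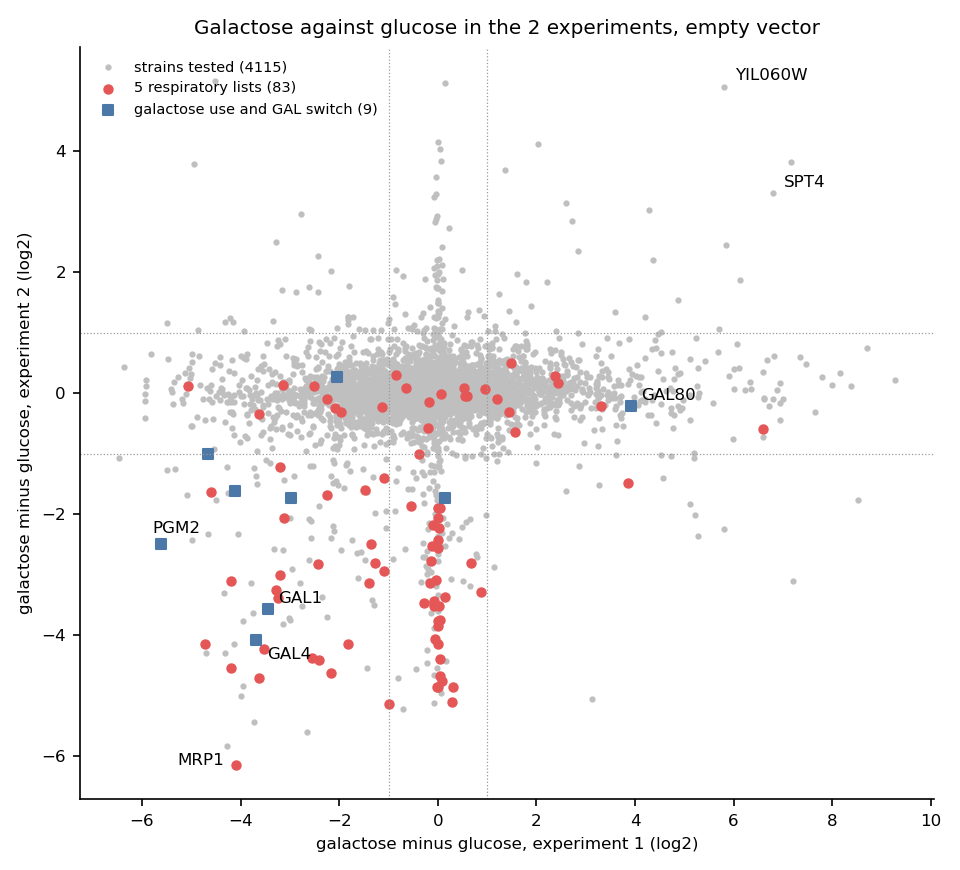
Galactose minus glucose (log2) in experiment 1 against experiment 2 for the 4115 tested strains (grey), the 83 strains of the 5 respiratory lists (red) and the 9 of galactose use and the GAL switch (blue), with empty vector. Dotted lines mark 2-fold differences. The cloud is wider in experiment 1, and 24 respiratory strains lie below both lower lines and 0 above both upper lines.

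The medians of most other lists lay within 1 log2 unit of that of all strains. The cytosolic ribosomal lists held 49 and 35 tested strains, with medians of 0.13 (large subunit) and -0.16 (small subunit), and 0 and 2 of them were 2-fold lower in both experiments. These 2 were Δrps1b (-2.13 and -1.10) and Δrps9b (-1.06 and -1.95), whose genes each have a paralogue, and both rest on the uptag. For peroxisome biogenesis and beta-oxidation the 28 tested strains had a median of -0.10, and 0 were 2-fold lower in experiment 2. Autophagy strains had a median of 0.19 over 16, with Δatg10 at -4.55 and Δatg15 at -2.59 in experiment 2. Trehalose and glycogen strains (14 tested) were at 0.21, the 11 of glucose repression at -0.17 and the 9 of SWR1 and H2A.Z at 0.26. For Elongator the 9 tested strains had a median of 0.04, and for SAGA the 6 tested a median of -0.12. Lists of SWI/SNF, V-ATPase, late ergosterol synthesis and the HAP complex with retrograde signalling held 2 to 6 tested strains each, with medians of 0.46, -0.62, -0.82 and -0.63. When each sample was scaled again to the 75th percentile of all its probes, the median of all strains moved from -0.08 to 0.65, and the medians of the tricarboxylic acid cycle (0.34), glucose repression, SAGA, V-ATPase, small ribosomal subunit, peroxisome, nutrient synthesis and HAP lists turned positive with it. Scaled to the 75th percentile of the labelled tags alone, the Elongator median was -0.14. Those of the 5 respiratory lists, galactose use, the GAL switch and ESCRT stayed negative, between -2.43 (GAL switch) and -0.49 (ATP synthase). Most strains that cannot make a supplied nutrient could be tested (18 of 20 for leucine, lysine and uracil synthesis, median -0.17), and of the strains that cannot make other amino acids, purines or histidine only 7 of 62 passed the filter. Within the first of these lists, 6 of 18 strains were 2-fold lower in experiment 1 and 1 in experiment 2, and 1 was 2-fold higher in experiment 2. The strain low in both was Δura1, without dihydroorotate dehydrogenase, with 13014 and 10023 on glucose and 2529 and 1490 on galactose, and this difference rests on the uptag (downtag 0.01 and -0.18). The high one was Δleu3, without the activator of leucine synthesis, with 132 on glucose and 5442 on galactose in experiment 2 and -0.08 in experiment 1. It was undetected on glucose in both experiments and passed the filter only through its galactose value of experiment 2.

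Read as presence or absence, 43 of 5526 strains (0.778%, Wilson 95% interval 0.578% to 1.05%) were detected on glucose and not on galactose in both experiments, and 9 (0.163%, 0.0857% to 0.309%) the reverse. These intervals count strains only and leave out the error of the arrays. Of the 43, 14 were among the 83 tested strains of the respiratory lists. They were 6 strains of complexes III and IV, 3 of the large and 4 of the small mitochondrial ribosomal subunit and Δcoq9. Others among the 43 were Δsec22, Δspt21 and Δalg3, the last without a mannosyltransferase of N-glycosylation (-2.48, by its uptag). Δsec22, without a SNARE of transport between the endoplasmic reticulum and the Golgi, gave 8278 and 2319 on glucose and 30.6 and 60.9 on galactose. Only its downtag read lower. Δspt21, without a regulator of histone gene transcription, gave 2718 and 3110 on glucose and 28.5 and 31.5 on galactose. In a single experiment 212 strains (experiment 1) and 223 strains (experiment 2) were detected on glucose and not on galactose.

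The same contrast with the MDM33 plasmid had a median difference of -1.52 in experiment 1 and -2.44 in experiment 2, and 46.2% of the 4115 strains were at least 2-fold lower in both experiments with it. Of the 53 strains lower with empty vector, 25 were 2-fold lower in both experiments with MDM33, which is near the share of all strains just given. Strains undetected on glucose with MDM33 could not be seen to fall on galactose. The count of 25 thus does not tell whether the 53 behaved like all strains. For 0 of the 53 did the difference between plasmids pass the limma interaction test (0 of 4115 strains at an adjusted p under 0.05, with 32 negative and 752 positive at an unadjusted p under 0.05). Δmrp1, for example, was at -0.99 and -6.37 with MDM33 and -4.09 and -6.14 with empty vector. Its glucose values in experiments 1 and 2 were 556 and 50987 with MDM33, beside 11735 and 44054 with empty vector. On glucose with the MDM33 plasmid, 51 of the 53 were detected in experiment 2 and 36 in experiment 1. Of all 5526 strains, 76.8% and 68.4% were detected there. The shares are of unlike sets, since the 53 were chosen from strains detected on glucose with empty vector and the 5526 were not. Of the GAL switch, Δgal3 was at 6.17 and 1.47 with MDM33 and lower on galactose in both experiments with empty vector. The interaction was -6.66 (SE 1.82, limma adjusted p = 0.226). Δgal4 was at -1.92 and 1.84 with MDM33, against -3.68 and -4.08 with empty vector, an interaction of -3.84 (SE 1.70, limma adjusted p = 0.274). Δgal1 was low with both plasmids, at -4.05 and -4.43 with MDM33.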

How the data were processed

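The pooled deletion strains were plated with either plasmid on either sugar, and genomic DNA served for amplification of uptags and downtags, which were labelled in separate samples and hybridised to Agilent arrays with original and re-sequenced versions of each barcode. The deposited values are spot intensities on a linear scale, background-corrected by the authors in ArrayVision and scaled by them so that every sample has about the same total (147379493 to 147535623 over the 12 empty-vector samples). The number of arrays limits the precision, and nothing in the deposited values gives a counting error. A further 24 columns of unscaled values, numbered without a label of a sample, were not used. Of 14766 annotated barcode probes 14741 had a value and were used. Gene names and neighbours came from the RefSeq table, in which 1 listed symbol found no match.

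Probes were averaged per strain and tag, then dyes within an experiment, then tags, and an offset of 500 was added before log2. Strains whose mean over the 4 empty-vector values, each as a multiple of its detection limit, exceeded 1 were tested. limma 3.58.1 (R 4.3.3; lmFit, eBayes, two-sided, Benjamini-Hochberg at 0.05) fitted galactose minus glucose to 4 values with 2 residual degrees of freedom, and plasmid by sugar to 8 values. Python 3.11.15 was used for summaries (pandas 2.3.3, numpy 2.4.6), intervals (scipy 1.17.1) and figures (matplotlib 3.10.9). In data simulated for this comparison (4115 strains), none of 100 strains set 3 log2 units lower (0%) and 31% of 100 set 5 lower were called, with 5 false calls. The deposited description names 2 independent transformations, and samples with the same experiment number share one. Deviations of glucose and galactose from their group means between experiments correlated with r = 0.25 (rho = 0.13) over the 4115 strains, and experiment as a block is among the alternatives.

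The comparison and the gene lists were chosen with earlier results of these data known. Of 33 lists, 7 (mitochondrial aminoacyl-tRNA synthetases, mitochondrial DNA maintenance and transcription, inner membrane peptidase, Ubp3-Bre5, retromer, mitochondrial pyruvate carrier, Spt4 and elongation) were added after the values were seen. Strains are named if they belong to the galactose use, GAL switch or Snf1 kinase lists, if they pass the test, if they are among the 15 lowest or 10 highest of those at least 2-fold different by both tags in both experiments, if they are among up to 4 members of another list with the largest differences of like direction, or if they overlap such a gene. The following strains fall outside this rule and were chosen once their values had been seen: Δaep2, Δalg3, Δatp7, Δcbp3, Δcbp4, Δcbs1, Δcox5a, Δcox5b, Δcox8, Δcox9, Δcox10, Δcox13, Δcox16, Δcyc1, Δcyc7, Δdma2, Δdss1, Δgep4, Δilm1, Δleu3, Δmcm21, Δmpc1, Δmrpl13, Δmrs2, Δmss116, Δndi1, Δppa2, Δqcr6, Δqcr10, Δrpm2, Δrps9b, Δsec22, Δsod2, Δspt21, Δstf1, Δstf2, Δtda3, Δtim11, Δvms1, Δwhi5, Δypk1, YDR010C and YMR151W. Alternatives covered offset, scaling, filter, detection limit, tags, probes, dyes, samples in the fit, the block and leaving out each sugar of each experiment in turn. No barcode sequence is printed, and RefSeq coordinates served only to find neighbours and overlaps.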

Additional observations from a re-analysis of the deposited data

Results flagged for a closer look

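Among the strains of the galactose use, GAL switch and Snf1 kinase lists and the 15 lowest and 10 highest by both tags, there were 4 for which galactose minus glucose went one way in both experiments with empty vector and the opposite way in both with the MDM33 plasmid, each time by at least 2-fold. Over all 4115 tested strains it was so for 8, the other 4 being Δgep4, Δilm1, Δmcm21 and Δwhi5, which were not among those groups. The difference between plasmids was tested as a limma interaction over 4115 strains and did not pass for any of them. With MDM33, 46.2% of all 4115 strains were at least 2-fold lower in both experiments. Of the 4 strains, Δsak1, Δsur2 and Δrav1 shared that direction with MDM33, and Δgal3 went against it. Δgal3 was at -4.67 and -1.01 with empty vector and 6.17 and 1.47 with MDM33, an interaction of -6.66 (SE 1.82, limma adjusted p = 0.226). Δsak1 was at 3.59 and 1.34 with empty vector and -1.63 and -1.96 with MDM33, an interaction of 4.26 (SE 1.35, limma adjusted p = 0.226). For Δsur2 the values were 6.12 and 1.87 against -2.71 and -6.12, an interaction of 8.41 (SE 1.94, limma adjusted p = 0.226). For Δrav1 they were 1.79 and 1.83 against -1.99 and -1.76, an interaction of 3.69 (SE 1.57, limma adjusted p = 0.261).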

How the results depend on the processing

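No setting gave a strain past the adjusted threshold. The 19 alternative limma fits to all samples called 0 strains, with 25 to 94 lower and 17 to 81 higher at an unadjusted p under 0.05 and a smallest adjusted p of 0.234. The 8 fits that left out 1 sugar of 1 experiment (4 values in turn, each in 2 forms of fit) also called 0, with 27 to 367 lower and 6 to 193 higher. With experiment as a replicate block the counts were 0 called and 94 lower and 22 higher unadjusted, and the block altered no call. Setting each sample's 75th percentile over all probes equal turned the unadjusted split from 81 lower and 19 higher to 25 and 81, in a fit that gave all strains 1 common variance.

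The median log2 difference of all strains, -0.0836, was 0.646 under that scaling, -0.231 with uptags alone and 0.00273 with downtags alone, and was -0.254, -0.162, 0.00738 and 0.0858 with a replicate left out. The count of 43 strains detected on glucose and not on galactose stayed between 38 and 47, except in experiment 1 alone (212) and experiment 2 alone (223). The 53 strains lower by both tags were 29 with an offset of 2000, all 29 among the 53, 34 under the 75th percentile of all probes, 507 in experiment 1 alone and 152 in experiment 2 alone. The 11 higher strains were 22 under that scaling, 17 with the dyes of experiment 1 alone, 350 in experiment 1 alone and 48 in experiment 2 alone. The rule for both tags and its alternatives were added after the data were seen. The cause of these shifts was not tested.

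Of 38 named strains, 4 took the opposite sign under some setting, in 16 of 1019 values. Δsip1 (0.03) was -0.07 with the 75th percentile of labelled tags, -0.24 as the mean of log2 values, -0.35 with the opposite dyes, -0.57 with uptags alone, and -0.64 to 0.69 with a replicate left out (-0.17 without glucose of experiment 1). With a replicate left out, Δpgm1 (-0.89) ranged from -1.91 to 0.13, the latter without galactose of experiment 1, and Δgal10 (-0.79) from -1.64 to 0.05, the latter without glucose of experiment 2. Δelm1 (-0.54) ranged from -2.97 to 1.90, and was 1.32 without galactose of experiment 1 and 1.90 without glucose of experiment 2. Each group had 2 experiments, sugar and days on the plate cannot be told apart, and in experiment 1 neither can sugar and dye.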
